A study of Homo sapiens with 18 samples.

Results

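Histone modifications at the promoters of 10 genes of the unfolded protein response and the integrated stress response were described in MOLM-13 cells. The 10 genes were ATF4, DDIT3, XBP1, HSPA5, ASNS, TRIB3, CHAC1, SESN2, HERPUD1 and ATF3, of 20020 protein-coding genes in the annotation. In the count list of each modification, a gene was represented by 1 interval, the one with the highest mean count over the 4 libraries among those that overlap 2 kb on either side of any of its GENCODE transcription start sites on hg38. MOLM-13 is a human acute myeloid leukemia line with a KMT2A rearrangement. The cells received 100 nM PR-957 (ONX-0914), an inhibitor of the immunoproteasome subunit PSMB8, or its solvent DMSO, and both groups were kept for 72 h per the sample labels, while the study's supplement gives a shorter time. Cut&Tag, which cuts and tags DNA beside an antibody-bound protein with a tethered transposase, was run for H3K4me3, H3K27ac, H3K4me1 and H3K27me3, with 2 libraries per treatment and modification and 16 libraries in all. All groups share this 1 cell line, and nothing in the labels says whether the 2 libraries of a group came from separate cultures.

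Unfolded proteins in the endoplasmic reticulum (ER) are sensed by IRE1, PERK and ATF6. IRE1 splices the XBP1 mRNA, ATF6 is cleaved to a transcription factor, and PERK phosphorylates eIF2 alpha, as do kinases that sense amino acid shortage, double-stranded RNA or heme shortage, so that most translation falls while that of ATF4 rises. ATF4 with its partners then drives genes such as DDIT3, ASNS, TRIB3, CHAC1, SESN2 and ATF3, and this response is known to be switched on when proteasomes are blocked. H3K4me3 marks promoters and H3K27ac marks active promoters and enhancers, while H3K4me1 lies at enhancers and beside promoters and H3K27me3 is the mark of Polycomb repression.

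The promoters of several of the genes hold the letters by which these transcription factors are known to bind, and they are shown because the intervals measured below lie over them. Promoter windows of 300 bases, from 250 bases before to 50 bases after a start, were taken from RefSeq on GRCh38.p14, where all 10 genes matched with 17 windows. The amino acid response element (CARE, searched as TGATGNAA on both strands) stood in a window of ASNS, ATF3, CHAC1 and HERPUD1, and in 3.62% of all 35116 windows. The ER stress response element (ERSE, searched as CCAAT and CCACG with 9 bases between them) stood in a window of HSPA5 and of XBP1, and in 0.0769% of all windows. Its second form (ERSE-II, ATTGG and CCACG with 1 base between them) stood in HERPUD1 and in 0.0541% of all windows. The XBP1 site TGACGTGG and the cyclic AMP element TGACGTCA were in no window of the 10 genes, against 0.729% and 1.85% of all windows. These shares are of windows, while a gene can have several windows that overlap, so the genes named and the shares are unlike measures. A match is a match of letters and not a measured site. The 5 windows that hold a match and lie inside an H3K4me3 interval follow 5′ to 3′ along the gene, with the matched letters in capitals.
HSPA5, chr9:125241294-125241593, reverse strand: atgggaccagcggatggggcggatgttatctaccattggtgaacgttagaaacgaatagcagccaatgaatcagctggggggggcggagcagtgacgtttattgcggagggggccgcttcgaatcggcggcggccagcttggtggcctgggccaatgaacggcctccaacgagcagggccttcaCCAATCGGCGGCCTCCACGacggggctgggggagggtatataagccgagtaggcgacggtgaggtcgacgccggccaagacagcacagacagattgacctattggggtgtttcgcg
XBP1, chr22:28800520-28800819, reverse strand: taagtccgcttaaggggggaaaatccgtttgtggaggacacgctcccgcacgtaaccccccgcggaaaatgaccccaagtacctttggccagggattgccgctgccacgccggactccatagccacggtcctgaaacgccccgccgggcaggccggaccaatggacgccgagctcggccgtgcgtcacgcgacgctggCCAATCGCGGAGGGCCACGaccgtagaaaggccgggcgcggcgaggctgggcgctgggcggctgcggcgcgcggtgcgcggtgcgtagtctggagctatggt
HERPUD1, chr16:56931892-56932191, forward strand: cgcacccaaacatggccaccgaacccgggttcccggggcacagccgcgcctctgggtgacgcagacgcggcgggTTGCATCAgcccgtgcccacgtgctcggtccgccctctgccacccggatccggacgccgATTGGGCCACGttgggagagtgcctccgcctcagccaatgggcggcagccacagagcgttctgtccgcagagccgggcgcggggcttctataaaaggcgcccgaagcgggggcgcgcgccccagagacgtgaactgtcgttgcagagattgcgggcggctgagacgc
ASNS, chr7:97872359-97872658, reverse strand: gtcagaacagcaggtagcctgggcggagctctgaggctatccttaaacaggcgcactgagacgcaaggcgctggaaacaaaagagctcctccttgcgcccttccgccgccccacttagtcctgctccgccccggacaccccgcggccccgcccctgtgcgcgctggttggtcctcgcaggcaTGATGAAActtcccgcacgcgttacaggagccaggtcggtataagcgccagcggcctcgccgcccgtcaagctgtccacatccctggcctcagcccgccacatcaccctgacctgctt
CHAC1, chr15:40953221-40953520, forward strand: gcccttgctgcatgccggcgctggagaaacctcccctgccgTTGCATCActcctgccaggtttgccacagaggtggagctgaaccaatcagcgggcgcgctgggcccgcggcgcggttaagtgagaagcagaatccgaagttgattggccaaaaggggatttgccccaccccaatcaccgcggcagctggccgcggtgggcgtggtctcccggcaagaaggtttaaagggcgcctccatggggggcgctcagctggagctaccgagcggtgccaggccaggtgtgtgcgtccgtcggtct
The ERSE of HSPA5 began 66 bases before the start, and that of XBP1 52 bases before it. In ASNS the CARE began 68 bases before the start and ran along the gene. HERPUD1 held a CARE on the opposite strand that began 176 bases before the start and an ERSE-II that began 117 bases before it, and the CARE of CHAC1 also lay on the opposite strand, 209 bases before the start. Their share of G and C ran from 61.3% in HSPA5 (percentile 56.8 of all windows) to 70.3% in HERPUD1 (percentile 80.5). The CARE of ATF3 lay in a window that no H3K4me3 interval of the gene covered, and it is not printed.

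The summed counts per library were 30070119 to 44591150 for H3K4me3, 9885836 to 14165777 for H3K27ac, 15204186 to 30584219 for H3K4me1 and 10032503 to 12047958 for H3K27me3. For H3K4me3 both PR-957 libraries (30070119 and 30454212) were below both DMSO libraries (42037643 and 44591150). The same held for H3K4me1, with 15204186 and 22790073 for PR-957 against 23874111 and 30584219 for DMSO. The lists hold overlapping intervals: 97.8% of H3K4me3, 83.0% of H3K27ac, 91.5% of H3K4me1 and 79.97% of H3K27me3 intervals overlap another, so these sums count many reads more than once and neighbouring calls repeat each other. Levels are given in CPM, counts scaled to the same sum over the tested intervals of each library after TMM adjustment. This is a relative scale: the sources used here name no spike-in, so a change of a whole modification would not be seen, and fewer cells with the mark cannot be told apart from less of the mark per cell. All 8 myeloid marker genes that were looked up (SPI1, CEBPA, CD33, MPO, LYZ, FLT3, HOXA9 and MEIS1) had an H3K27ac interval, and 7 of the 8 had an H3K4me3 interval.

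No promoter of the 10 genes passed the test for a difference between PR-957 and DMSO in any modification. Intervals of H3K4me3 and of H3K27ac represented 9 of the 10 genes, intervals of H3K4me1 represented 8, and an interval of H3K27me3 represented ATF3 alone. SESN2, a sestrin that restrains mTORC1 when leucine is short, had no interval within its window in any list used here and was not analysed here. ASNS had none for H3K4me1. By the quasi-likelihood test of edgeR at a Benjamini-Hochberg adjusted p under 0.05, 0 of 9 genes passed in H3K4me3, 0 of 9 in H3K27ac, 0 of 8 in H3K4me1 and 0 of 1 in H3K27me3, and DESeq2 called 0 of the 9, 4, 4 and 1 genes to which it gave an adjusted p. The share of all protein-coding genes that passed in the same way was 0.219% of 12789 for H3K4me3, 0.480% of 12084 for H3K27ac, 2.15% of 8700 for H3K4me1 and 11.8% of 3874 for H3K27me3, and 0 among at most 9 genes cannot be set apart from these shares. Over all intervals the shares were 0.226%, 0.238%, 1.94% and 5.92%.

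At an unadjusted p under 0.05 the members gave 0 of 9 in H3K4me3 against 8.04% of all genes, 1 of 9 in H3K27ac (TRIB3) against 9.56%, and 1 of 8 in H3K4me1 (ATF4) against 16.9%. Both PR-957 libraries lay on one side of both DMSO libraries for 3 of 9 genes in H3K4me3, where 37.8% of all genes do so, for 5 of 9 in H3K27ac (38.4%), for 3 of 8 in H3K4me1 (47.8%) and for the 1 gene in H3K27me3 (49.0%). The median log2 fold change of the members was -0.07 in H3K4me3, -0.13 in H3K27ac and 0.00 in H3K4me1, and that of all genes -0.01, 0.00 and -0.08. The log2 fold change was below 0 for 7 of 9 members in H3K4me3, 6 of 9 in H3K27ac and 4 of 8 in H3K4me1. Single libraries weighed on these medians: with PR-957 replicate 1 left out that of H3K4me3 was -0.0082, and that of H3K27ac was -0.038 when DMSO replicate 1 was left out and -0.061 when PR-957 replicate 2 was. For all genes, 6862 of 12789 were below 0 in H3K4me3 and 6018 of 12084 in H3K27ac and 5401 of 8700 in H3K4me1. A p above the threshold does not show that the groups were alike. The 95% confidence intervals say how large a difference is left between these libraries. The fold of PR-957 over DMSO lay between 0.736 and 1.15 for every member in H3K4me3. It lay between 0.586 and 1.32 in H3K27ac, and between 0.546 and 1.96 in H3K4me1. These confidence intervals rest on a spread between libraries that edgeR shares across all intervals, since each group has 2 libraries. That spread may be technical, so they do not bound a difference between separate cultures.

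**Figure D1:**
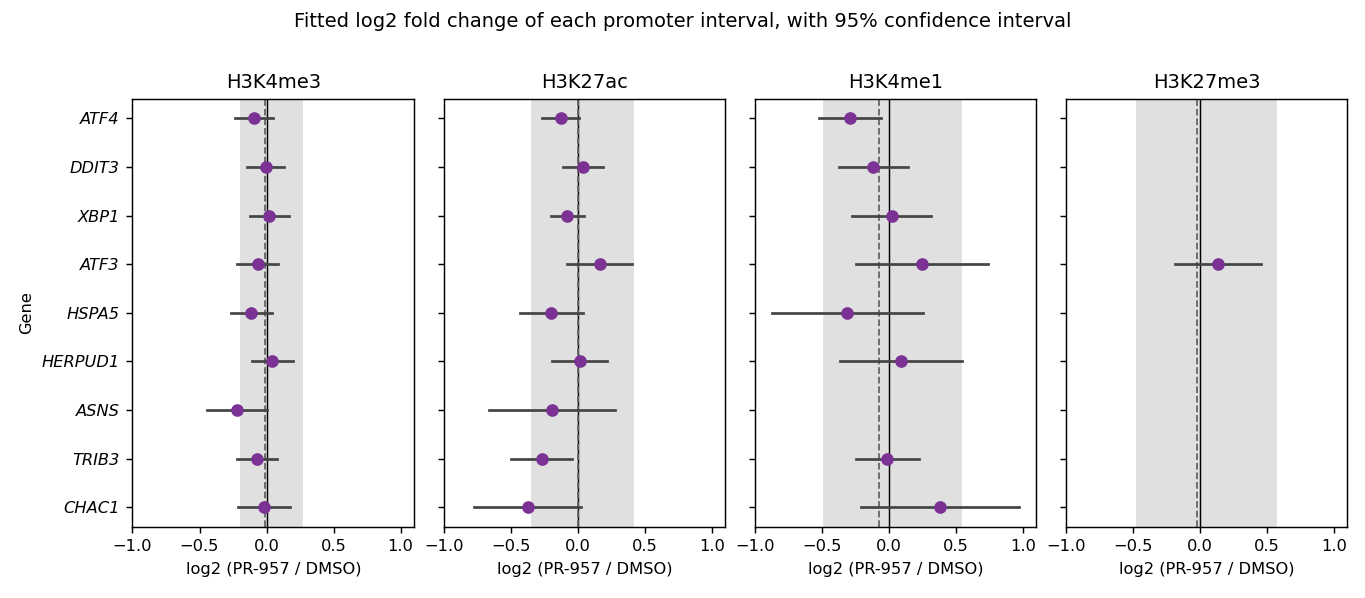
Fitted log2 fold change of PR-957 over DMSO (x axis) for the interval representing each gene (y axis), by modification. Points are the edgeR estimates, bars their 95% confidence intervals, the gray band the range from the 5th to the 95th percentile of all genes and the dashed line their median. Every H3K4me3 bar reaches 0, and the bars of TRIB3 in H3K27ac (-0.50 to -0.04) and ATF4 in H3K4me1 (-0.52 to -0.06) are the 2 that stay below it.

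ATF4, the transcription factor through which eIF2 alpha phosphorylation acts, had a wide promoter interval. H3K4me3 (chr22:39517981-39528117) spanned 10136 bp there, percentile 96.6 of the widths of all genes. Its level was 49.3 and 46.5 CPM in the DMSO libraries and 42.3 and 47.6 CPM in the PR-957 libraries. The groups overlapped, and the log2 fold change was -0.09 ± 0.07 (SE, edgeR adjusted p = 0.850). H3K27ac over ATF4 (chr22:39516917-39528075) was 84.5 and 77.9 CPM with DMSO and 76.1 and 73.1 CPM with PR-957. Here both PR-957 libraries were the lower pair, by a log2 fold change of -0.13 ± 0.07 (SE, edgeR adjusted p = 0.670).

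The H3K4me1 interval that stands for ATF4 (chr22:39522223-39533456) began 1.62 kb from the nearest ATF4 start and held none of them, and it held the start of the neighbouring gene RPS19BP1. It gave 23.6 and 25.5 CPM with DMSO and 20.7 and 19.6 CPM with PR-957, so that both PR-957 libraries were below both DMSO libraries. The log2 fold change was -0.29 ± 0.12 (SE, edgeR unadjusted p = 0.0138, adjusted p = 0.175), which had the lowest adjusted p of any member in any modification. With a window of 1 kb another interval stood for ATF4, and its log2 fold change was 0.40 (adjusted p = 0.606), so the sign at ATF4 in H3K4me1 turned with the interval chosen.

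DDIT3 encodes CHOP, a transcription factor of the same response that is known for its part in cell death under lasting ER stress. H3K4me3 over its promoter (chr12:57516742-57526236) was 49.5 and 52.5 CPM with DMSO and 50.7 and 50.8 CPM with PR-957. Both PR-957 libraries fell between the DMSO libraries, and the log2 fold change was -0.01 ± 0.07 (SE, edgeR adjusted p = 0.992). H3K27ac (chr12:57517882-57525378) was 63.5 and 63.1 CPM against 60.7 and 69.0 CPM, and H3K4me1 (chr12:57517101-57526282) was 13.7 and 12.1 CPM against 11.04 and 12.7 CPM. Neither pair was separated, with log2 fold changes of 0.04 ± 0.08 and -0.11 ± 0.13 (SE). In each of these 3 modifications the interval also held the start of MBD6, which lies beside DDIT3, so the counts cannot be assigned to DDIT3 alone.

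XBP1, whose mRNA IRE1 splices and whose protein drives ER chaperone and degradation genes, had the highest H3K27ac of the members per kb of interval. Its H3K27ac interval (chr22:28796677-28803523) gave 103 and 96.6 CPM with DMSO and 94.9 and 94.3 CPM with PR-957. The PR-957 libraries were both lower, by a log2 fold change of -0.08 ± 0.06 (SE, edgeR adjusted p = 0.832). H3K4me3 (chr22:28795888-28803491) was 42.8 and 39.5 CPM against 40.5 and 43.1 CPM, which overlap, with a log2 fold change of 0.02 ± 0.07 (SE). The H3K4me1 interval (chr22:28790666-28797776) lay beside the main start and held neither of the 2 RefSeq starts. It gave 9.01 and 8.91 CPM with DMSO and 8.41 and 9.65 CPM with PR-957, and both DMSO values lay between those of PR-957.

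ATF3, a stress-induced transcription factor of the same family, was the 1 member with H3K27me3 at its promoter, and the interval used lay at an inner start. Its H3K4me3 interval (chr1:212605713-212610825) held 3 GENCODE starts of ATF3 and neither of its 2 RefSeq starts. H3K27me3 (chr1:212603811-212609178) was 13.8 and 13.9 CPM with DMSO and 14.7 and 15.6 CPM with PR-957. Both PR-957 libraries were higher, with a log2 fold change of 0.13 ± 0.16 (SE, edgeR adjusted p = 0.774). The H3K27me3 interval shared 3465 bp with that of H3K4me3, 2378 bp with that of H3K27ac and 3399 bp with that of H3K4me1. Of the 12789 genes with an H3K4me3 interval, 2314 (18.1%) had an H3K27me3 interval as well, and whether both marks sit on the same alleles or in the same cells cannot be told apart in bulk cells.

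The other marks of ATF3 did not pass the test either. H3K4me3 was 27.1 and 28.5 CPM with DMSO and 26.1 and 26.98 CPM with PR-957, a log2 fold change of -0.07 ± 0.08 (SE, edgeR adjusted p = 0.917). H3K27ac (chr1:212606800-212610370) was 24.8 and 22.8 CPM against 26.1 and 27.3 CPM, and H3K4me1 (chr1:212605779-212610317) 3.22 and 2.63 CPM against 3.72 and 3.30 CPM. In these 2 the PR-957 libraries were both higher, with log2 fold changes of 0.16 ± 0.12 and 0.25 ± 0.25 (SE) and adjusted p of 0.817 and 0.668. Near the outer start of ATF3, 4 overlapping H3K4me3 intervals with far fewer counts had values in the other direction. They began 0.351 to 0.958 kb from the nearest start and did not cover it. The one with the lowest p (chr1:212566178-212567913) held 2.55 and 2.79 CPM with DMSO and 4.07 and 3.90 CPM with PR-957. Its log2 fold change was 0.58 ± 0.23 (SE, edgeR unadjusted p = 0.0137, adjusted p = 0.474) on 114 to 124 counts a library, and the same reads stand behind all 4 intervals.

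**Figure D2:**
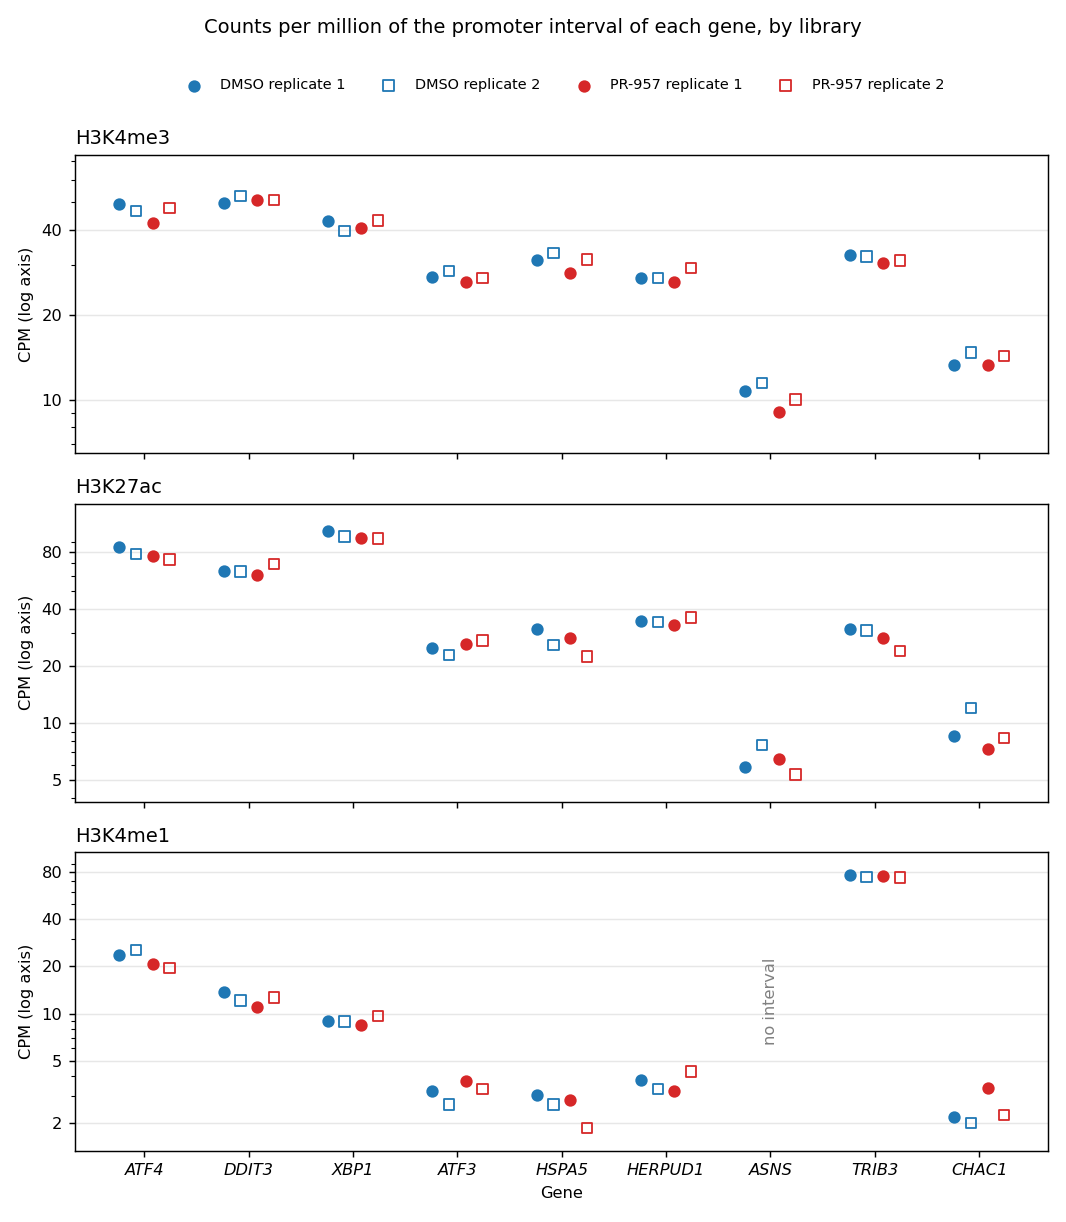
CPM (y axis, log scale) of the interval representing each gene (x axis) in every library, with DMSO in blue and PR-957 in red, replicate 1 as circles and replicate 2 as open squares. Within a gene the 4 libraries lie close together beside the range between genes, as in H3K27ac from ASNS (5.35 to 7.66 CPM) to XBP1 (94.3 to 103 CPM). ASNS has no H3K4me1 interval.

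HSPA5 encodes BiP, the main HSP70 chaperone of the ER lumen, and HERPUD1 an ER membrane protein that serves in the removal of misfolded proteins. H3K4me3 over HSPA5 (chr9:125236233-125243681), which covered the window with the ERSE printed above, was 31.3 and 33.0 CPM with DMSO and 28.1 and 31.4 CPM with PR-957. The groups overlapped and the log2 fold change was -0.11 ± 0.08 (SE, edgeR adjusted p = 0.818). H3K27ac (chr9:125237781-125243549) was 31.3 and 25.7 CPM against 27.98 and 22.4 CPM, again overlapping, with a log2 fold change of -0.20 ± 0.12 (SE, adjusted p = 0.724). That value shrank to -0.038 when DMSO replicate 1 was left out and to -0.035 when PR-957 replicate 2 was, and grew to -0.35 when PR-957 replicate 1 was left out. The H3K4me1 interval (chr9:125235920-125239861) held none of its starts and was thin, with 43 to 90 counts a library. It gave 3.05 and 2.63 CPM with DMSO and 2.82 and 1.87 CPM with PR-957. The sign of HSPA5 in H3K4me1 turned from -0.31 to 0.24 when the window was 1 kb and another interval was used.

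HERPUD1 had smaller fitted differences than HSPA5 in all 3 modifications. Its H3K4me3 (chr16:56930530-56935560) was 26.8 and 26.96 CPM with DMSO and 26.2 and 29.3 CPM with PR-957, and its H3K27ac (chr16:56929830-56934123) was 34.4 and 34.1 CPM against 33.0 and 35.96 CPM. In both modifications the DMSO libraries lay between the PR-957 libraries, with log2 fold changes of 0.04 ± 0.08 and 0.02 ± 0.10 (SE). H3K4me1 (chr16:56929772-56933502) was 3.79 and 3.30 CPM against 3.21 and 4.26 CPM. That log2 fold change was 0.09 ± 0.23 (SE, edgeR adjusted p = 0.890), and its sign turned when either replicate 2 library was left out.

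ASNS makes asparagine and is a classic target of ATF4. Its H3K4me3 interval (chr7:97871215-97873041) was the narrowest of the members in this modification at 1826 bp, percentile 3.93 of the widths of all genes, and covered the window with the CARE printed above. H3K4me3 was 10.7 and 11.5 CPM with DMSO and 9.06 and 10.0 CPM with PR-957. Both PR-957 libraries were lower, and the log2 fold change of -0.22 ± 0.11 (SE, edgeR unadjusted p = 0.0549, adjusted p = 0.676) was the largest of the members in this modification. H3K27ac (chr7:97871429-97872962) was 5.83 and 7.66 CPM against 6.44 and 5.35 CPM. These overlapped, on 64 to 77 counts a library, and the log2 fold change was -0.19 ± 0.24 (SE).

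TRIB3, a pseudokinase that ATF4 and CHOP induce, had lower H3K27ac with PR-957 at the unadjusted level. H3K27ac over its promoter (chr20:379987-386597) was 31.2 and 30.9 CPM with DMSO and 27.98 and 23.9 CPM with PR-957. Both PR-957 libraries were below both DMSO libraries, and the log2 fold change was -0.27 ± 0.12 (SE, edgeR unadjusted p = 0.0215, adjusted p = 0.495). It was -0.15 (adjusted p = 0.835) without PR-957 replicate 2. H3K4me3 (chr20:379455-384118) was 32.5 and 32.1 CPM against 30.4 and 31.0 CPM, the same order of groups, with a log2 fold change of -0.07 ± 0.08 (SE). The H3K4me1 interval (chr20:359178-378602) was the widest of the members at 19424 bp, and it held 1 GENCODE start upstream and none of the 3 RefSeq starts. It gave 76.1 and 74.3 CPM with DMSO and 75.5 and 73.8 CPM with PR-957, which interleave, with a log2 fold change of -0.01 ± 0.12 (SE).

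CHAC1, an enzyme that breaks down glutathione and is strongly induced by ATF4, had few counts in H3K27ac and H3K4me1. H3K4me3 (chr15:40951540-40955869) was 13.3 and 14.7 CPM with DMSO and 13.3 and 14.3 CPM with PR-957, a log2 fold change of -0.02 ± 0.10 (SE, edgeR adjusted p = 0.982). H3K27ac (chr15:40952055-40954354) was 8.48 and 12.0 CPM against 7.25 and 8.30 CPM. The PR-957 libraries were both lower, and the log2 fold change of -0.37 ± 0.20 (SE, adjusted p = 0.673) rested on 72 to 119 counts a library. It ran from -0.61 without DMSO replicate 1 to -0.12 without DMSO replicate 2. H3K4me1 (chr15:40952070-40954976) was 2.202 and 2.01 CPM against 3.34 and 2.26 CPM, with both PR-957 libraries higher by a log2 fold change of 0.38 ± 0.30 (SE, adjusted p = 0.556) on 48 to 65 counts a library. The H3K27ac and H3K4me1 differences at CHAC1 thus had opposite signs, and neither passed the test.

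Per kb of interval, the members ran from percentile 28.6 to 80.7 of all genes in H3K4me3 and from 8.22 to 95.4 in H3K4me1. In H3K27ac they lay from percentile 48.8 (CHAC1) to 97.2 (XBP1), so none was far below the median of all genes. In H3K4me3, TRIB3 was highest at 6.76 CPM per kb (6.52 to 6.97 over the 4 libraries, percentile 80.7 of all genes) and CHAC1 lowest at 3.20 CPM per kb (3.06 to 3.40, percentile 28.6). Between them ASNS, XBP1, HERPUD1, DDIT3 and ATF3 (5.65 to 5.31 CPM per kb) could not be ordered, since the libraries of each overlapped those of the next. The ranges of ATF4 (4.58) and HSPA5 (4.15) overlapped each other below these 5, though ATF4 was above HSPA5 within every library. In H3K27ac, XBP1 stood above every other member at 14.2 CPM per kb (13.8 to 15.0), percentile 97.2. DDIT3 (8.55) and HERPUD1 (8.002) followed, then ATF3 (7.07) and ATF4 (6.98), and the ranges of the libraries within each of these pairs overlapped. Within every library DDIT3 was above HERPUD1, while ATF3 was below ATF4 in the DMSO libraries and above it in the PR-957 libraries. HSPA5, TRIB3, ASNS and CHAC1 (4.65 to 3.92 CPM per kb) overlapped one with the next, near the median of all genes, 3.99 CPM per kb.

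In H3K4me1 the order was led by TRIB3 at 3.86 CPM per kb (percentile 95.4, in the wide interval described above) and ATF4 at 1.99. The ranges of DDIT3 (1.35) and XBP1 (1.27) overlapped each other, as did those of HERPUD1 (0.976), CHAC1 (0.844), ATF3 (0.710) and HSPA5 (0.658), each with the next. Within every library, however, DDIT3 was above XBP1 and CHAC1 was above ATF3. ATF3 and HSPA5 were at percentiles 11.5 and 8.22 of all genes. H3K27me3 over ATF3 was 2.70 CPM per kb (2.56 to 2.91), percentile 64.4 of the genes with such an interval. Over the 3 modifications the libraries of 9 of 23 neighbouring pairs did not overlap.

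**Figure D3:**
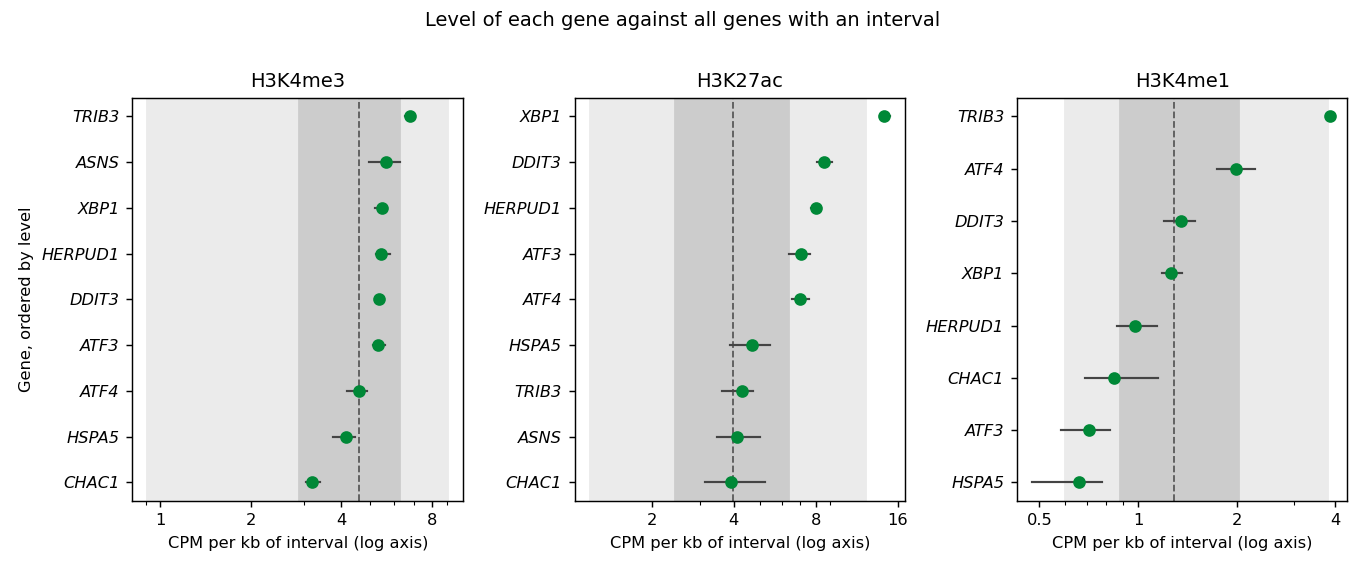
Level in CPM per kb of interval (x axis, log scale) of each member (y axis, ordered by level) in H3K4me3, H3K27ac and H3K4me1. Points are means of the 4 libraries and lines run from the lowest to the highest library. Light and dark gray bands hold all genes with an interval from the 5th to the 95th and from the 25th to the 75th percentile, and the dashed line is their median. XBP1 in H3K27ac and TRIB3 in H3K4me1 lie to the right of the light band.

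The fitted differences of the members were also set side by side between modifications. As a description over genes, the log2 fold changes of H3K4me3 and H3K27ac had a Pearson r of 0.31 and a Spearman rho of 0.43 over 9 genes, and those of H3K27ac and H3K4me1 an r of -0.01 and a rho of 0.07 over 8 genes. For H3K4me3 and H3K4me1 the values were 0.46 and 0.57 over 8 genes. The modifications were read in separate libraries, but the intervals of 2 modifications at 1 promoter often cover the same bases.

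The other intervals beside these promoters were also read. Within the 2 kb windows lay 41 H3K4me3, 43 H3K27ac, 32 H3K4me1 and 4 H3K27me3 intervals, and edgeR called 0 of them, with 4, 4, 2 and 0 at an unadjusted p under 0.05, against 7.52%, 8.01%, 16.2% and 15.6% of all intervals. Within 25 kb of a start lay 85, 91, 93 and 12 intervals, and again edgeR called 0. DESeq2 called 0 of the 85, 16, 42 and 8 that it gave an adjusted p. At an unadjusted p under 0.05, 4 of 85 H3K4me3 intervals were higher with PR-957, all near the outer start of ATF3, against 3.87% of all H3K4me3 intervals. Of the H3K27ac intervals 5 of 91 were lower (3 at TRIB3, 1 at ATF4 and 1 at XBP1), against 4.64% of all. In H3K4me1, 17 of 93 were lower and 0 higher. Of all H3K4me1 intervals, 7.63% were lower at that level and 16.2% reached it in either direction. The 17 overlap one another and come from 5 places, so they are not 17 separate readings.

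The H3K4me1 interval with the lowest p among these lay 6.98 kb from the nearest start of HERPUD1 (chr16:56948991-56953781). It gave 16.6 and 19.5 CPM with DMSO and 13.6 and 14.4 CPM with PR-957, with both PR-957 libraries lower. The log2 fold change was -0.36 ± 0.12 (SE, edgeR adjusted p = 0.0905). A group of 4 intervals 17.9 to 18.8 kb from CHAC1 had log2 fold changes of -0.31 to -0.29, where DMSO replicate 1 stood alone (38.6 CPM in chr15:40925101-40934793) and DMSO replicate 2 (29.1 CPM) was level with PR-957 replicate 2 (29.1 CPM). Without DMSO replicate 2 edgeR called these 4, with adjusted p from 0.0216 to 0.0282. A group of 3 intervals 24.2 to 24.7 kb from TRIB3 held 4.404 and 3.60 CPM with DMSO and 1.41 and 3.26 CPM with PR-957 in chr20:335038-338093. These 3 were called without PR-957 replicate 2, with adjusted p from 0.0102 to 0.0118, so their calls rest on 1 library of 22 or 23 counts. In H3K27ac the interval with the lowest p lay 8.44 kb from XBP1 (chr22:28809039-28813232), with 11.8 and 11.3 CPM against 7.55 and 8.02 CPM and a log2 fold change of -0.57 ± 0.20 (SE, adjusted p = 0.311). These intervals, like those near the outer start of ATF3, were singled out after their values were seen.

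A wider list of 81 genes of the same responses, in 7 roles, gave 2 calls, 1 in H3K4me1 and 1 in H3K27me3, both lower with PR-957. Of the 81 genes 73 had a tested interval in H3K4me3 and 73 in H3K27ac, 52 in H3K4me1 and 6 in H3K27me3. The call of 1 of 52 in H3K4me1 stands beside 2.15% of all genes called (1.45% lower with PR-957), and that of 1 of 6 in H3K27me3 beside 11.8% (9.99% lower), so neither count stands out from all genes. In H3K4me3 and in H3K27ac edgeR called 0, and DESeq2 called 0 of the 73 and 25 genes that it gave an adjusted p. At an unadjusted p under 0.05 there were 7 of 73 genes in H3K4me3 (8.04% of all genes), 9 of 73 in H3K27ac (9.56%), 8 of 52 in H3K4me1 (16.9%) and 2 of 6 in H3K27me3 (22.9%). The medians of the log2 fold changes were -0.03 in H3K4me3, -0.04 in H3K27ac and -0.04 in H3K4me1, beside -0.01, 0.00 and -0.08 for all genes. By role, the medians ran from -0.07 to 0.06 in H3K4me3 and from -0.13 to 0.04 in H3K27ac, and in H3K4me1 from -0.23 for the 9 effectors downstream of eIF2 alpha to 0.07 for the 10 genes of amino acid supply and tRNA charging.

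BBC3, which encodes the pro-apoptotic BH3-only protein PUMA, was the gene called in H3K4me1. Its interval (chr19:47224571-47233956) gave 17.1 and 18.2 CPM with DMSO and 10.97 and 14.7 CPM with PR-957, with both PR-957 libraries lower. The log2 fold change was -0.44 ± 0.13 (SE, edgeR adjusted p = 0.0335). H3K4me3 over BBC3 was 93.4 and 94.1 CPM against 84.1 and 89.2 CPM (log2 fold change -0.11, adjusted p = 0.755), and H3K27ac was 109 and 104 CPM against 98.8 and 103 CPM (log2 fold change -0.08, adjusted p = 0.812). The call held in 5 of the 13 alternatives that changed the fit or the interval, with adjusted p from 0.0129 to 0.703. Among others it was lost in DESeq2 (0.384) and when DMSO replicate 1 (0.115), DMSO replicate 2 (0.191) or PR-957 replicate 1 (0.508) was left out.

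STC2, a secreted glycoprotein that ER stress is known to raise, was the gene called in H3K27me3. Its interval (chr5:173324608-173332410) gave 27.6 and 31.4 CPM with DMSO and 24.2 and 20.5 CPM with PR-957, which do not overlap. The log2 fold change was -0.41 ± 0.12 (SE, edgeR adjusted p = 0.0257). H3K4me3 and H3K27ac over STC2 overlapped between groups, with log2 fold changes of 0.10 ± 0.10 and 0.07 ± 0.37 (SE). The call held in 5 of the 13 alternatives that changed the fit or the interval, with adjusted p from 0.0191 to 0.379. Among others it was lost in DESeq2 (0.143), with the replicate block (0.118) and when DMSO replicate 2 (0.379) or PR-957 replicate 2 (0.347) was left out.

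**Figure D4:**
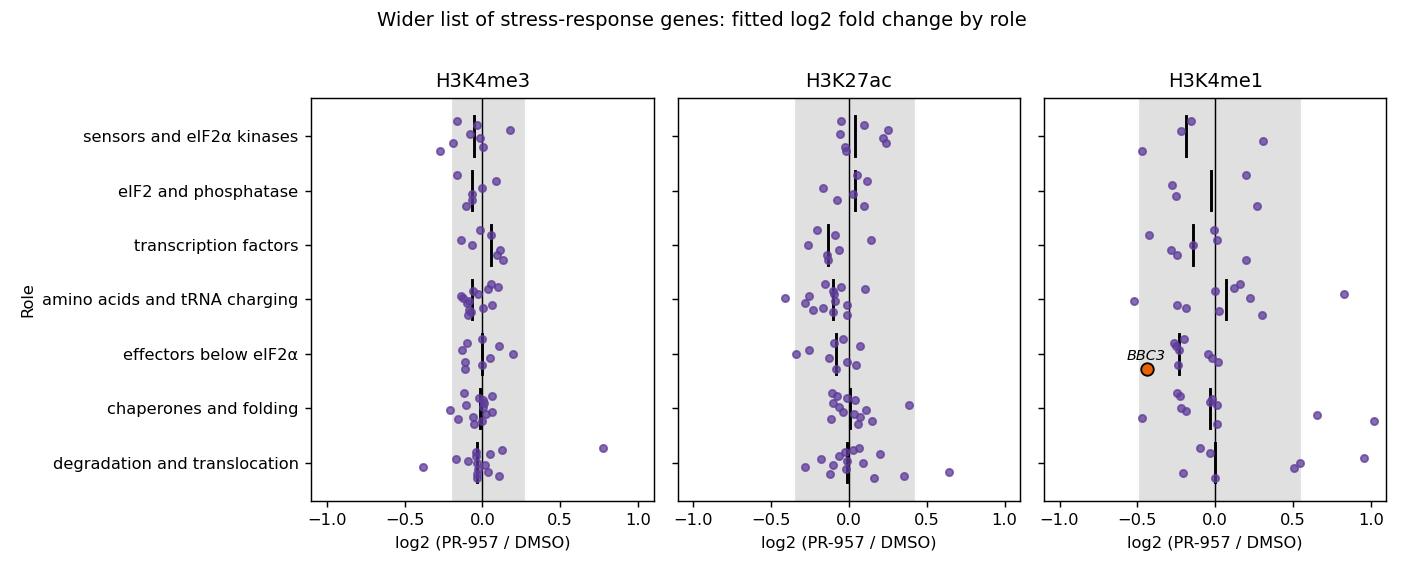
Fitted log2 fold change of PR-957 over DMSO (x axis) for each gene of the wider list with a tested interval, by role (y axis), in H3K4me3, H3K27ac and H3K4me1. Small points are genes that did not pass, the large orange point is the called gene BBC3 (-0.44), black strokes are medians of a role, and the gray band runs from the 5th to the 95th percentile of all genes. The points of each role lie on both sides of 0 in H3K4me3 and H3K27ac.

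Of the wider list's genes that did not pass, these had the lowest p in each of 3 modifications. In H3K4me3 it was OS9, a lectin of ER-associated degradation, with 9.84 and 11.6 CPM in DMSO and 8.67 and 7.79 CPM in PR-957 (log2 fold change -0.38 ± 0.12, edgeR adjusted p = 0.194). In H3K27ac it was SLC1A5, a glutamine transporter, with 52.7 and 55.5 CPM against 42.6 and 47.4 CPM (log2 fold change -0.26 ± 0.09, adjusted p = 0.275). In H3K4me1 it was SEC24D, a cargo adaptor of the COPII coat, with 3.52 and 2.76 CPM against 4.68 and 4.57 CPM (log2 fold change 0.55 ± 0.23, adjusted p = 0.188). PPP1R15A, the GADD34 subunit that directs dephosphorylation of eIF2 alpha, came next in H3K4me1 with 23.8 and 26.1 CPM against 20.0 and 21.0 CPM (log2 fold change -0.28 ± 0.12, adjusted p = 0.189). Both PR-957 libraries were higher at SEC24D and lower at the other 3 genes. They were chosen for mention after their values were seen.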

How the data were processed

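The data are Cut&Tag libraries of 4 histone modifications in MOLM-13 cells, 2 for each treatment. Each deposited file holds whole-number counts on a list of intervals, without normalization by the authors. Per the labels, reads were processed with Trimmomatic 0.39, Bowtie2 2.2.5, Picard 2.27.1, SAMtools 1.7, SEACR 1.3 and deepTools 3.5.1 on hg38, and the counting tool and the treatment of duplicates are not given in the sources used here. Intervals that overlap were counted separately and not merged. Positions are those of the files. The 2 IgG samples are not analysed here, and a check of marker genes of other lineages is not reported here.

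Files were read in Python 3.11.15. Within each modification, intervals were kept by filterByExpr (minimum count 10), scaled by TMM, and PR-957 was tested against DMSO with edgeR 4.0.16 (quasi-likelihood, two-sided, R 4.3.3) with Benjamini-Hochberg adjustment over all tested intervals at 0.05. An exact permutation test on 2 against 2 libraries could not go below p = 0.333. The p-values rest on the spread between these libraries as edgeR shares it across all intervals, and that spread may be technical. Start sites came from GENCODE release 44 and promoter windows from RefSeq on GRCh38.p14. The scripts were tested on simulated counts, with a change put into 200 intervals drawn from all tested ones. A fold of 1.5 was recovered in 71.5% of them for H3K4me3, 21% for H3K27ac, 23.5% for H3K4me1 and 26% for H3K27me3. For a fold of 2 the shares were 85.5%, 61%, 64% and 43%. Outside H3K4me3 many changes of this size in such intervals would thus be missed. The shares were not computed for the members, whose own SE gives their precision (in H3K27ac from 0.06 at XBP1 to 0.24 at ASNS).

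The members and lists were chosen with earlier results of these data known. Named were all 10 members, the called genes of the wider list (at most 6 per modification by p), called intervals within 25 kb of a member (at most 3 per modification) and at most 6 promoter windows with a searched motif. Precision follows the counts a library, which are given where they are low. The alternatives were DESeq2 1.42.0, scaling by library size alone, by median-of-ratios factors or by cyclic loess (limma 3.58.1), a count filter left out or set to a mean of 50, a block for the replicate number, windows of 5 and 1 kb, protein-coding transcripts only, the narrowest interval, and leaving out each library. A fit on 1 interval per gene was added after seeing the data.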

Additional observations from a re-analysis of the deposited data

How the results depend on the processing

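No member passed the test in any of the 423 alternative values with an adjusted p, of which 79 repeat the value reported because the interval was the same. The lowest adjusted p was 0.174 (ATF4 in H3K4me1 with no count filter). DESeq2 gave none for 9 values, 5 in H3K27ac and 4 in H3K4me1. With the narrowest interval, the log2 fold change turned sign at ATF3 (0.55) and TRIB3 (0.080) in H3K4me3, at CHAC1 (0.64) in H3K27ac, and at ATF4 (0.40), DDIT3 (0.091), HSPA5 (0.24) and HERPUD1 (-0.052) in H3K4me1, and the members' median was -0.0053, -0.069 and 0.16 in these modifications. A window of 1 kb gave the same turn at ATF4 (0.40) and HSPA5 (0.24) and a median of 0.16 in H3K4me1, and protein-coding starts turned XBP1 to -0.038 there. DDIT3 in H3K4me3 turned to 0.014 with cyclic loess offsets and 0.0037 with library size only. TRIB3 in H3K4me1 turned to 0.13, 0.037, 0.015 and 0.056 with cyclic loess offsets, library size only, a mean count of at least 50, and 1 interval per gene. H3K27me3 at ATF3 was 0.30 with library size only, which moved the median of all genes in H3K27me3 by 0.16, and 0.20 with a mean count of at least 50.

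Leaving out each library gave log2 fold changes in H3K4me3 from -0.049 to 0.034 for DDIT3, from -0.035 to 0.081 for XBP1, from -0.095 to 0.053 for CHAC1, from -0.040 to 0.12 for HERPUD1, and from -0.089 to -0.0082 for the median. In H3K27ac the range was -0.39 to 0.0052 for ASNS, -0.061 to 0.12 for DDIT3, -0.052 to 0.072 for HERPUD1 and -0.15 to -0.038 for the median. In H3K4me1 it was -0.029 to 0.0085 for TRIB3, -0.15 to 0.26 for HERPUD1 and -0.090 to 0.11 for XBP1, with 0 to 4 intervals within 25 kb and 0 to 1 genes of the wider list called. In H3K27me3 it was 0.082 to 0.16 for ATF3, with 0 to 1 genes of the wider list called. The cause of these moves was not tested, beyond the change of interval or of library.

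The wider list had 0 calls in H3K4me1 with DESeq2, library size only, 1 interval per gene and the narrowest interval, and 0 in H3K27me3 with DESeq2, cyclic loess offsets, library size only, 1 interval per gene, the narrowest interval and the replicate block. The labels do not say that replicate numbers pair libraries, and the deviations of equally numbered libraries correlated at 0.167, -0.009, 0.007 and -0.007 in the 4 modifications. The replicate block changed no other call: 0 members in each modification and 1 gene of the wider list in H3K4me1. Low counts limit H3K4me1 at CHAC1, HSPA5, ATF3 and HERPUD1 and H3K27ac at ASNS and CHAC1.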
